A study of Sus scrofa with 22 samples.

Results

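miR-9 was described in the subcutaneous fat of pigs of 3 breeds, as the sum of all sequences that the deposited count tables name miR-9. These were 11 of 8479 sequences, under 1 of 250 miRNA names, and carried 2655 reads over 22 libraries. The name was chosen by the count values themselves, because of all names tested it had the smallest p between thick and thin fat over the breeds, so each thick and thin value below is a description with no test. The breed tests use other contrasts in the same libraries, whose spread also entered that choice, so they are not fully separate from it. The libraries were of small RNA from female pigs aged 6 months: 5 of Hampshire thick fat and 2 of Hampshire thin fat, 4 of Pietrain thick and 3 of Pietrain thin, and 4 of Large White thick and 4 of Large White thin. The animals were untreated, as far as the labels say, and the fat depth behind the words thick and thin was not given in the sources used here. The labels do not tie libraries to named animals. The edgeR p-values thus set a difference against the spread between libraries within groups, and part of that spread may be technical. The permutation p-values set it against other arrangements of the breed labels over the same libraries.

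miR-9 is a microRNA, a short RNA that guides Argonaute proteins to messenger RNAs through its seed, bases 2 to 8 from its 5′ end, and lowers their stability and translation. It is best known from the brain, where in mouse and other vertebrates it acts on neural progenitors and on neuron formation, with targets that include the repressor REST and the nuclear receptor TLX. In human monocytes and neutrophils its genes are also induced through NF-kB signalling, and the NF-kB subunit gene NFKB1 is among its targets there. RefSeq lists 3 pig genes for it, MIR9-1, MIR9-2 and MIR9-3, and reads of a mature sequence that such genes share cannot be assigned to one of them. The assembly of that annotation differs from the one in the submitters' processing notes, so no positions are given.

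The sequences that carried the reads are shown because the level of miR-9 turned on which of them a library listed. All 11 began with the same 20 bases and held the same seed, shown in capitals in the most abundant sequence, and differed at the 3′ end, where capitals mark the bases that set a sequence apart from that 22-base one.
22-base sequence, seed in capitals: uCUUUGGUuaucuagcuguaug
23-base sequence ending in A: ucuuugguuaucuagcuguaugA
21-base sequence: ucuuugguuaucuagcuguau
23-base sequence ending in U: ucuuugguuaucuagcuguaugU
22-base sequence ending in A: ucuuugguuaucuagcuguauA
No other name had a most abundant sequence with the seed CUUUGGU, and no row named otherwise held the core of miR-9. The other arm of the hairpin was not analysed here.

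The 22-base sequence carried 1422 reads, 53.6% of all miR-9 reads, and was listed in 21 libraries. The 23-base sequence ending in A carried 476 reads (17.9%), but in 9 libraries only. The 21-base sequence carried 372 reads (14.0%) in 20 libraries. The 23-base sequence ending in U, with the change A23U against the one ending in A (positions counted from 1 at the 5′ end), carried 231 reads (8.70%) in 15 libraries. The shorter and rarer ones added little: a 20-base sequence had 64 reads, the 22-base sequence with G22A had 45 reads in 5 libraries, and the other 5 sequences, among them U21C, A23C and A23G, had 6 to 15 reads each.

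These reads were few. A library held 12 to 299 miR-9 reads in 430712 to 3136842 reads of all listed sequences. The smallest deposited count above 0 was 6 in each library, so a sequence at 0 may have had up to 5 reads, and a 0 is not read as absence. The 12 reads of Large White thick replicate 1 alone have an exact Poisson interval of 6.20 to 20.96 reads, and such intervals cover counting error only. By mean level miR-9 stood at rank 115 of 250 names, between miR-497 at 80.1 and miR-224 at 74.7 CPM (reads per 1e6 reads of the library, scaled by the trimmed mean of M-values, TMM). The adipocyte miRNAs listed were abundant: the summed level of the 7 measured of 8 adipocyte miRNAs was 273332 to 604329 CPM over the libraries, although most of these are expressed in other tissues too.

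Doubtful libraries touch what follows. In Large White, the authors' deposited comparison of the fat classes matched the counts by the labels poorly (Pearson r = -0.653 across 6796 sequences, between a refit of thick minus thin and the deposited thin minus thick values) and matched them completely (r = -1) once thick replicate 1 and thin replicate 1 were exchanged; Hampshire and Pietrain matched by the labels at r = -0.9999 and r = -1. The Hampshire and Pietrain count tables list all thin libraries before the thick ones. The Large White count table lists thick replicate 1 among the thin libraries and thin replicate 1 among the thick ones, as in the exchange. Which grouping is right was not tested. The libraries labelled Large White thick replicate 1 and Large White thin replicate 1 are the lowest and the highest Large White libraries in miR-9. Values are by the labels unless said otherwise. The breed differences, the fat differences and the group means are also given with the exchange and without both. Hampshire thin replicate 1 and Hampshire thick replicate 3 stood apart in the liver miRNA miR-122, at 22548 and 13587 CPM. Each breed has a count table of its own, so breed and any batch of library preparation or processing cannot be told apart.

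miR-9 was highest in Hampshire. In thick fat it was at 79.8, 73.4, 88.3, 87.0 and 90.7 CPM in the Hampshire libraries, at 36.5, 41.2, 59.3 and 59.5 CPM in the Pietrain libraries and at 21.6, 38.9, 40.6 and 58.9 CPM in the Large White libraries. In thin fat it was at 296.8 and 148.9 CPM in Hampshire, at 94.7, 81.8 and 45.2 CPM in Pietrain and at 96.3, 53.6, 55.1 and 50.3 CPM in Large White. By the labels, every Hampshire library was within its fat class above every library of the other breeds, while Pietrain and Large White overlapped. Of the 182 names tested, 6 (3.30%) had Hampshire above both other breeds with no overlap in both fat classes by the labels. With the exchange, the library at 96.3 CPM becomes a Large White thick library above all 5 Hampshire thick ones, so that miR-9 overlaps and the count is 5 names (2.75%); without both libraries miR-9 does not overlap and the count is 6. In bulk tissue, more cells of a type that expresses miR-9 and more miR-9 per cell cannot be told apart.

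**Figure D1:**
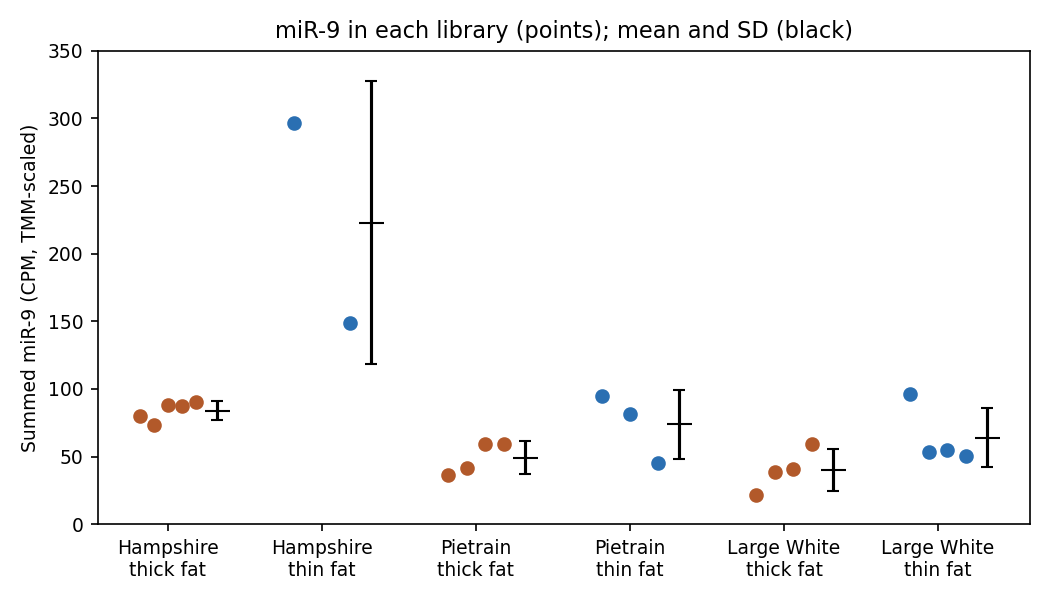
Summed miR-9 in CPM (vertical axis, TMM-scaled) in each of the 22 libraries, by breed and fat class; orange points are thick and blue points thin libraries, and black marks are the group mean and SD. The 5 Hampshire thick libraries lie between 73.4 and 90.7 CPM, above all Pietrain and Large White thick libraries by the labels shown (with the exchange, a Large White thick library stands at 96.3 CPM), and Hampshire thin replicate 1 stands at 296.8 CPM.

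miR-9 averaged 123.6 ± 80.4 CPM in Hampshire (SD, n = 7), 59.7 ± 21.6 CPM in Pietrain (SD, n = 7) and 51.9 ± 21.5 CPM in Large White (SD, n = 8). Hampshire exceeded Large White by a log2 fold change of 1.43 ± 0.25 (SE, 95% interval 0.91 to 1.95; edgeR quasi-likelihood test, Benjamini-Hochberg adjusted p = 6.4e-04), in a comparison that called 15.4% of the names in either direction and 8.24% as higher. Hampshire exceeded Pietrain by 1.18 ± 0.26 (0.64 to 1.73; edgeR adjusted p = 0.00252), in a comparison that called 17.6% of the names and 10.4% as higher. Pietrain and Large White differed by 0.25 ± 0.24 (-0.25 to 0.75; edgeR adjusted p = 0.842), a comparison in which edgeR called 0% of the names, 14 names had an unadjusted p under 0.05, DESeq2 called 4 names and limma-voom called 0.

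Both Hampshire differences held with the Large White libraries exchanged (1.40, edgeR adjusted p = 0.00103, over Large White and 1.18, adjusted p = 0.00461, over Pietrain) and without both of them (1.44 and 1.09). Without the libraries highest in miR-122 the difference from Large White was 1.15 (edgeR adjusted p = 0.0132) and that from Pietrain 0.88 (adjusted p = 0.0625), no longer past 0.05. One library decided the second call: without Hampshire thin replicate 1 the difference from Pietrain was 0.89 (edgeR adjusted p = 0.0507). In separate fits, thick fat alone gave 1.12 over Large White (edgeR adjusted p = 0.0444) and 0.76 over Pietrain (adjusted p = 0.131), and thin fat alone gave 1.73 (adjusted p = 0.0423) and 1.44 (adjusted p = 0.0726). The thick-fat call over Large White depended on the labels: it was 0.53 (edgeR adjusted p = 0.338) with the exchange and 0.88 (adjusted p = 0.0998) without both libraries. In thin fat the difference from Large White was 2.25 (edgeR adjusted p = 0.0348) with the exchange and 1.99 (adjusted p = 0.0315) without both. Scaling by library totals moved the median of all names to -0.31 for Hampshire minus Large White and miR-9 to 1.15, and upper quartile scaling moved the median to -0.35 and miR-9 to 1.14, so that miR-9 stood 1.45 and 1.49 above the median, against 1.46 with TMM scaling.

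The sequences behind the sum differed sharply between libraries. The 23-base sequence ending in A was listed in 6 of 7 Hampshire libraries, in 1 of 7 Pietrain libraries and in 2 of 8 Large White libraries. Where it and the 22-base sequence were both listed, in 8 libraries, it had 1.00 to 1.92 times as many reads as the 22-base sequence. In the 13 libraries that did not list it, the 22-base sequence still had 38 to 117 reads. The listing was therefore close to all or none, at depths where an equal share would have passed the smallest deposited count.

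The Hampshire libraries show this most fully. Thick replicates 1 to 4 had 36, 20, 99 and 37 reads of the 23-base sequence ending in A, beside 31, 13, 82 and 31 reads of the 22-base sequence, and thick replicate 5 had 0 beside 51. Thin replicates 1 and 2 had 103 and 75 reads beside 103 and 70. Outside Hampshire it was listed in Pietrain thick replicate 3, with 25 reads beside 13, in Large White thin replicate 3, with 69 beside 65, and in Large White thick replicate 1, with 12 reads and no other miR-9 sequence.

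Libraries that listed the 23-base sequence ending in A had less of the 22-base one. This held in each of the 4 groups that by the labels contain both kinds of library, a pattern noticed in these values and not tested. In Hampshire thick fat the 22-base sequence was at 24.2 to 36.0 CPM in the 4 libraries with the longer one and at 66.1 CPM in the library without it. In Pietrain thick fat it was at 16.4 CPM against 24.0 to 43.4 CPM, in Large White thick fat at 0 against 27.4 to 40.7 CPM, and in Large White thin fat at 21.8 against 39.2 to 48.8 CPM. The summed level in Hampshire thick fat, at 73.4 to 88.3 CPM with it and 90.7 CPM without it, varied less than either sequence: its SD was 7.10 CPM, against 16.4 CPM for the 22-base sequence and 18.6 CPM for the 23-base one (n = 5).

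**Figure D2:**
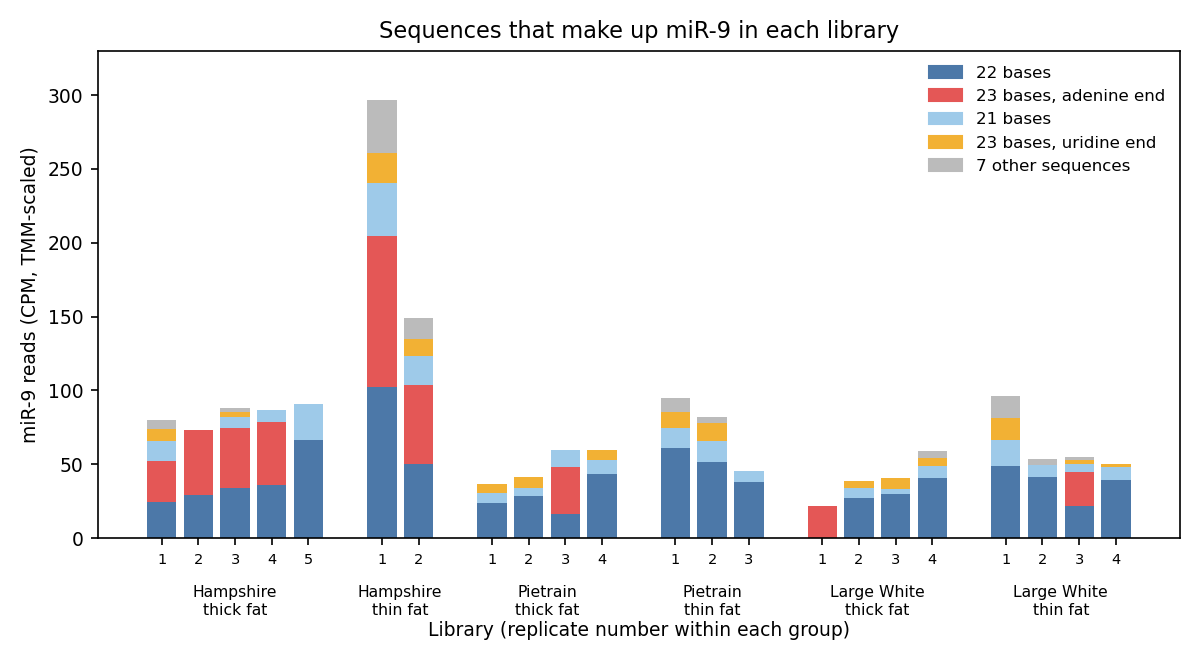
CPM (vertical axis, TMM-scaled) of the miR-9 sequences stacked for each library, with libraries on the horizontal axis numbered within breed and fat class; colours mark the 22-base sequence, the 23-base sequence with an adenine end, the 21-base sequence, the 23-base sequence with a uridine end and the 7 others summed. The adenine-ended sequence appears in 9 libraries, 6 of them Hampshire, and in the 4 groups that by the labels hold both kinds of library the 22-base sequence is lower where it appears.

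The breed differences followed which of these sequences were counted. With the 22-base sequence and the 23-base sequence ending in A added together, Hampshire exceeded Large White by 1.51 ± 0.22 (SE; edgeR adjusted p = 2.6e-04) and Pietrain by 1.28 ± 0.23 (edgeR adjusted p = 6.1e-04). With the 22-base sequence alone the differences were 0.81 (edgeR adjusted p = 0.324) and 0.51 (adjusted p = 0.529). With all but the 23-base sequence ending in A they were 0.96 ± 0.53 (edgeR adjusted p = 0.228) and 0.66 ± 0.55 (adjusted p = 0.447), and without the 2 doubtful Large White libraries as well, 0.89 (edgeR adjusted p = 0.035) and 0.55 (adjusted p = 0.17). The direction was the same in each of these counts. Without the 23-base sequence ending in A, which most Pietrain and Large White libraries did not list, the Hampshire differences were smaller and only that from Large White, with the 2 doubtful libraries left out, passed 0.05.

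**Figure D3:**
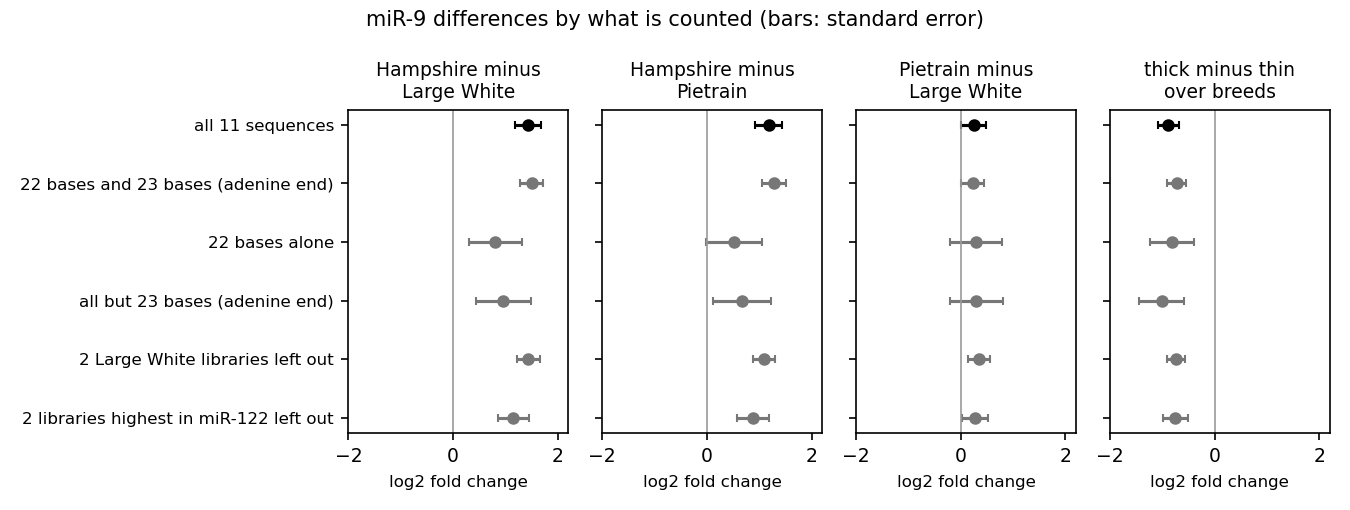
Log2 fold changes of miR-9 (horizontal axes) for the 3 breed comparisons and for thick minus thin over the breeds, with standard errors as bars, by what was counted or left out (rows). The Hampshire differences are 1.43 and 1.18 with all 11 sequences and 0.81 and 0.51 with the 22-base sequence alone; the rightmost panel is the contrast by which miR-9 was chosen.

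The share of reads in the 22-base sequence averaged 41.4% ± 14.4 in Hampshire (SD, n = 7), 63.7% ± 17.4 in Pietrain (SD, n = 7) and 57.3% ± 26.8 in Large White (SD, n = 8). Averaged over the fat classes, Hampshire minus Pietrain was -25.4 percentage points (exact permutation of breed within fat class, two-sided, p = 0.0238; adjusted over 9 tests, 0.214) and Hampshire minus Large White was -18.1 points (exact permutation p = 0.155, adjusted 0.465). Mean read length was 0.239 bases longer in Hampshire than in Pietrain (exact permutation p = 0.0643, adjusted 0.289) and 0.127 bases longer than in Large White (adjusted exact p = 0.702). The share of reads with a changed base was 5.98% ± 5.96 in Hampshire, 11.4% ± 8.23 in Pietrain and 10.4% ± 10.0 in Large White, with adjusted exact permutation p-values of 0.702 to 0.846 for the 3 pairs. This share counts changes against the 23-base sequence ending in A. Most such reads (231) were the 23-base sequence ending in U, which is the 22-base sequence with a U added, so it is no rate of substitution. None of the 9 differences in sequence make-up passed 0.05 after adjustment.

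Once the 23-base sequence ending in A was left out, the breed averages of the remaining reads lay closer together. The 22-base sequence then held 68.1% ± 19.01 of the reads in Hampshire, 68.2% ± 8.0 in Pietrain and 69.6% ± 9.2 in Large White, and the 9 adjusted exact permutation p-values were all 0.970. Large White thick replicate 1, with no other miR-9 sequence, gave no value there.

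Thin fat had more miR-9 than thick fat in each breed by the labels, the contrast for which miR-9 was chosen. In Hampshire it averaged 83.8 ± 7.10 CPM in thick fat (SD, n = 5) and 222.9 ± 104.6 CPM in thin fat (SD, n = 2), and every thick library was below both thin ones; 7.14% of the names tested had no overlap there. In Pietrain it averaged 49.1 ± 12.0 CPM in thick fat (SD, n = 4) and 73.9 ± 25.6 CPM in thin fat (SD, n = 3), and in Large White 40.0 ± 15.2 CPM in thick and 63.8 ± 21.7 CPM in thin fat (SD, n = 4 each). The Large White means turn round with the exchange, to 58.7 ± 26.7 CPM in thick and 45.2 ± 15.8 CPM in thin fat (SD, n = 4 each), and were 46.1 ± 11.1 and 53.0 ± 2.48 CPM in thick and thin fat without both libraries (SD, n = 3 each). In these breeds the classes overlapped: Pietrain thin replicate 3, at 45.2 CPM, lay below 2 Pietrain thick libraries, and Large White thick replicate 4, at 58.9 CPM, lay above 3 Large White thin libraries.

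Ordered by their means by the labels, the groups ran from Hampshire thin through Hampshire thick, Pietrain thin, Large White thin and Pietrain thick to Large White thick. With the exchange Large White thick and Large White thin change places, on either side of Pietrain thick; without both libraries the order is as by the labels. Hampshire thin and Hampshire thick, the first neighbours, did not overlap. All other neighbours in that order overlapped, and their levels did not differ beyond the spread of their libraries. The pooled within-group SD of log2 CPM was 0.45.

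As a description, the log2 fold change of thick minus thin was -0.89 ± 0.20 (SE) over the breeds, -1.41 ± 0.36 in Hampshire, -0.59 ± 0.35 in Pietrain and -0.66 ± 0.33 in Large White. The Large White value turned to 0.37 with the exchanged libraries and was -0.22 without both, while the value over the breeds was -0.54 with the exchange and -0.73 without both. The Hampshire value was -0.81 without Hampshire thin replicate 1, which was also the library highest in miR-122, and -0.85 without the 2 libraries highest in miR-122. The part of that liver signal in the miR-9 level was not tested. Hampshire thick replicate 3, the other such library, had 88.3 CPM of miR-9, within the range of the thick libraries.

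The thick and thin difference was not shown to vary between breeds. The test of that variation had F = 1.55 (edgeR adjusted p = 0.993). Its contrast was not used to choose miR-9, but the same libraries and their spread were. In this test edgeR called 0 of 182 names, 10 names had an unadjusted p under 0.05, DESeq2 called 2 and limma-voom 0. The difference of differences was -0.75 ± 0.50 for Hampshire minus Large White (SE, 95% interval -1.79 to 0.30), -0.82 ± 0.52 for Hampshire minus Pietrain (-1.90 to 0.27) and 0.07 ± 0.48 for Pietrain minus Large White (-0.93 to 1.07). With the exchanged Large White libraries the edgeR adjusted p was 0.671.

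By sequence, the authors' deposited table gave the 22-base form a log2 value of thin minus thick, the other way round from the values above, of 0.96 ± 0.58 in Hampshire and 0.79 ± 0.48 in Pietrain (its own standard errors). In Large White that table gave it -0.46 ± 0.62, in the comparison that matches the counts only with the exchange. All 8 miR-9 sequences of the Hampshire part of the authors' deposited table were higher in thin fat, as were 6 of 7 in the Pietrain part, the exception being the 23-base sequence ending in A at -6.13, listed there in 1 thick library. In the Large White part, 7 of 9 sequences of the authors' deposited table were higher in thick fat, and the 23-base sequence ending in A stood at 6.98. Its values of that size arise where one class lists the sequence at 0 throughout, and they are no measure of a fold. The sequences were counted in the same libraries, some of them in 1 library only, so their directions are not separate observations. They also describe the contrast by which miR-9 was chosen, and the share of all deposited sequences with each direction is not given here.

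Other miRNAs best known from nerve were set beside miR-9, from a list of 9 of which 4 were measured: miR-128, miR-218-5p, miR-129a-5p and miR-338-5p. miR-124, a characteristic miRNA of neurons, miR-137, miR-138, miR-153 and miR-219 were not analysed here. In Hampshire minus Large White, where 8.24% of all names were called higher and 7.14% lower, 1 of the 4 was higher and 0 lower, miR-218-5p at 0.95 ± 0.30 (SE; edgeR adjusted p = 0.0403), and the median of the 4 was 0.63, against -0.03 over all names tested. In Hampshire minus Pietrain, where 10.4% of all names were called higher and 7.14% lower, 1 was higher and 0 lower, miR-128 at 0.80 ± 0.25 (edgeR adjusted p = 0.0348), with a median of 0.85 against -0.05. miR-129a-5p, at -0.24 and -0.92 in these comparisons, had values of the opposite sign and passed neither test. In Hampshire minus Large White the medians of the other lists, described below, were also above -0.03. They ran from 0.06 for endothelium to 0.77 for skeletal muscle and 3.65 for liver (1 tested name). In Hampshire minus Pietrain, skeletal muscle was at 0.64 and liver at 2.21, while leukocyte and red blood cell were at -0.53 and -0.07. A higher median in Hampshire was thus not particular to the nerve list.

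The summed nerve list was at 1511 to 2681 CPM in Hampshire thick and 1478 to 2294 CPM in Hampshire thin fat, 903 to 1529 and 820 to 1307 CPM in Pietrain thick and thin fat, and 1158 to 1284 and 1302 to 1576 CPM in Large White thick and thin fat. It was thus above most libraries of the other breeds in Hampshire, as miR-9 was. For thick minus thin over the breeds, the contrast by which miR-9 was chosen, the 4 nerve names had a median of -0.04 (2 of 4 below 0). Over all names it was 0.04. The part of nerve in the miR-9 level was not tested.

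The miRNAs tied to NF-kB and inflammation, of which 5 of 7 listed were measured, gave no call in any breed comparison. miR-146a-5p, a feedback inhibitor of NF-kB signalling, was at 0.09 ± 0.32 (SE) in Hampshire minus Large White, miR-21 at 0.41 ± 0.88, and miR-155-5p at -0.89 ± 0.33 (edgeR adjusted p = 0.0688). Leukocyte, red blood cell, liver, epithelial and endothelial lists also had 0 tested members called between breeds. Only 1 of 3 liver, 2 of 4 red blood cell, 3 of 6 leukocyte and 4 of 6 epithelial names were tested. Of these, miR-122 was at 3.65 in Hampshire minus Large White (edgeR adjusted p = 0.124) and miR-451 at 1.18 (adjusted p = 0.0688). The other tested red blood cell name, miR-486, was at 0.06 there and at -0.77 in Hampshire minus Pietrain (edgeR adjusted p = 0.0569). The epithelial miR-205, at 0 in 14 libraries, was at 5.00 and 5.66 in these comparisons (edgeR adjusted p = 0.0926 and 0.105). The untested liver miRNA miR-192 averaged 2126 ± 4092 CPM in Hampshire thick and 2996 ± 3717 CPM in Hampshire thin fat (SD). It had no listed reads in any Pietrain or Large White library. The untested red blood cell miRNA miR-144 averaged 36.7 and 18.6 CPM in Hampshire thick and thin fat. It averaged 1.62 and 5.02 CPM in Large White thick and thin fat and had no listed reads in either Pietrain group. Only names listed for every breed were tested. A name not listed for a breed was taken as 0 in these averages, and such a 0 is not a measured value. Thus miR-122, miR-192, miR-451 and miR-144 averaged highest in Hampshire, as miR-9 did, but with a wide spread. In Hampshire thick and thin fat miR-122 averaged 4346 ± 5350 and 11476 ± 15657 CPM (SD, n = 5 and 2). There miR-451 averaged 852 ± 656 and 920 ± 795 CPM. The summed red blood cell list had a median of 662 CPM in Hampshire thick fat, below 774 and 777 CPM in Pietrain thick and thin fat. For miR-192 over both other breeds and miR-144 over Pietrain, the order rests on values of 0. By contrast, miR-486 averaged highest in Pietrain thin fat (242.5 CPM) and lowest in Hampshire thin fat (78.2 CPM). Hampshire thick replicates 1, 2 and 4, where miR-192 was listed at 0, had 79.8, 73.4 and 87.0 CPM of miR-9. Where miR-192 had reads, miR-9 was at 88.3 and 90.7 CPM (thick replicates 3 and 5) and 296.8 and 148.9 CPM (thin replicates 1 and 2). The part of liver and blood in the miR-9 level was not tested. Of 4 tested skeletal muscle names, 1 was called over Pietrain, miR-499-5p at 1.24 (edgeR adjusted p = 0.00197), and 0 over Large White. In both comparisons miR-133a-5p had values of the opposite sign and was not called. Of 11 tested adipocyte names, 2, miR-148a-3p and miR-455-5p, were higher in Hampshire in both comparisons and 0 were lower. Among all names, 8.24% and 10.4% were called higher over Large White and over Pietrain. The adipocyte miR-196a went the other way, at -1.56 (edgeR adjusted p = 0.0688) and -0.78 (adjusted p = 0.384), and was not called. Much of the summed adipocyte list was miR-148a-3p, at a mean of 278927 CPM beside 476854 CPM for the list in Hampshire thick fat. The summed adipocyte list was at 392353 to 570552 CPM in Hampshire thick and 576394 to 604329 CPM in Hampshire thin fat, 334097 to 374822 and 297153 to 409220 CPM in Pietrain thick and thin fat, and 273332 to 427057 and 306629 to 370645 CPM in Large White thick and thin fat.

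The miRNAs whose log2 CPM ran most like that of miR-9 over the 22 libraries were miR-1468 (Spearman rho 0.66), miR-32 (0.66), miR-455-5p (0.56), miR-151-3p (0.56) and miR-181a (0.55), against a median rho of -0.02 over the 181 other names. They share the libraries and their scaling with miR-9. After the 6 group means were removed, rho stayed at 0.45 for miR-1468 and 0.47 for miR-32 and was -0.09, -0.09 and 0.10 for miR-455-5p, miR-151-3p and miR-181a. miR-32, at 1.44 (log2, edgeR adjusted p = 5.8e-04), was higher in Hampshire than in Large White by about as much as miR-9. The thick minus thin values of these 5 over the breeds lay between -0.23 for miR-455-5p and 0.15 for miR-32. The median over all names tested was 0.04. Since miR-9, at -0.89, was chosen by that contrast, its distance from them there is no result.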

How the data were processed

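Per the labels' protocols, RNA with an integrity number above 7.5 went into NEBNext small RNA libraries, size-selected on a gel. The authors deposited whole-number counts per sequence, 1 table for each breed, and for each breed a DESeq2 table that per the file headers holds, per sequence, the mean normalized count (a signal over the libraries of the breed), log2 fold change and its error, the test statistic (a score) and p-values, of which the fold changes and errors were used; per the submitters' processing notes the tools included bcl2fastq, FastQC and DESeq2, with pig assembly Sscrofa10.2. No source used here names the trimmer, the aligner or the miRNA annotation. Differences in trimming or in the smallest count kept could change which sequences are listed.

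Counts were summed by miRNA name; the 191 names in every table entered 1 edgeR 4.0.16 quasi-likelihood fit (R 4.3.3) of 6 group means with TMM scaling, and 182 passed its filter on low counts (minimum 10). Breed contrasts weight the fat classes equally, with p-values adjusted by Benjamini-Hochberg over all 182 and a threshold of 0.05. limma 3.58.1 (voom) and DESeq2 1.42.0 were alternatives, as were other scalings, filters and sets of libraries. Scripts were checked on simulated counts. Unnamed reads, 0.0480% of the total, were left out. Changed bases were counted against the more abundant of the longest sequences listed in every table, in place of a RefSeq mature sequence, which was not at hand. miR-9, the lists and the likeness rule (the 5 names with the highest Spearman rho) were chosen with earlier results of these data known. Counting the 22-base sequence together with the 23-base sequence ending in A, leaving out that 23-base sequence, and the fits by fat class with other Large White labels or without 2 libraries, were added after seeing the data.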

Additional observations from a re-analysis of the deposited data

Results flagged for a closer look

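Several measures of miR-9 were examined in each group of at least 4 libraries, 20 combinations of measure and group in all. In 5 of these, 1 library lay further from the others than Dixon's 95% critical value allows. Chance gives about 1 in 20 for separate data, but these measures share the same reads, so the count cannot be set against that rate. Summed miR-9 was 96.3 CPM in Large White thin replicate 1, the highest of 4, and this is one of the libraries whose label goes against the authors' deposited comparison. The 22-base sequence was at 66.1 CPM in Hampshire thick replicate 5, the highest of 5, and held 72.9% of the miR-9 reads there (exact 95% binomial interval 60.9% to 82.8%). It held 0% in Large White thick replicate 1, the lowest of 4, where 12 miR-9 reads allow up to 26.5% by the same interval. It held 27.7% (15.6% to 42.6%) in Pietrain thick replicate 3, the lowest of 4. In the last 3 of these libraries the 23-base sequence ending in A was listed against the habit of the group: at 0 in the Hampshire library, at 12 reads in the Large White library and at 25 reads in the Pietrain library.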

How the results depend on the processing

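Hampshire minus Large White kept its direction in 45 alternatives and its call in 40, between 1.17 and 1.64 with 1 library left out; it was not called with the 22-base sequence alone (0.81), without the 23-base sequence ending in A (0.96), without it and with the exchanged labels (0.96), or in thick libraries only with the exchange (0.53) or without both doubtful Large White libraries (0.88). Hampshire minus Pietrain kept its direction in 45 and its call in 33; with 1 library left out it was 0.89 to 1.39, and it was not called with the 22-base sequence alone (0.51), without the libraries highest in miR-122 (0.88), in thick (0.76; 0.73 with the exchange and 0.73 without both Large White libraries) or thin (1.44; 1.51 and 1.44) libraries only, without the 23-base sequence ending in A (0.66), without it and both doubtful Large White libraries (0.55), or without it and with the exchange (0.66). Pietrain minus Large White was -0.20 in thick libraries only with the exchange. Thick minus thin moved in Hampshire to -0.85 without the libraries highest in miR-122 and lay between -1.82 and -0.81 with 1 library left out. In Large White it was 0.37 with the exchange, 0.011 without the 23-base sequence and both libraries, and 0.77 without the sequence and with the exchange. The Pietrain minus Large White difference of the fat difference, 0.07, was -0.037 with DESeq2, -0.25 with limma-voom, -0.21 with the 22-base sequence alone, -0.96 with the exchange, -0.42 without both libraries, -0.11 without the 23-base sequence, -0.90 without it and both libraries, -1.61 without it and with the exchange, and -0.20 to 0.32 with 1 library left out. Among the measures of sequence make-up, the Pietrain minus Large White share of the 22-base sequence was -3.44 points without both Large White libraries, -1.31 without the 23-base sequence and -1.64 to 12.4 with 1 library left out, and the length difference 0.026 bases and -0.173 to 0.016. Without the 23-base sequence Hampshire reads were shorter by length differences of -0.114 and -0.0996 bases from Large White and Pietrain. The share of changed bases was 2.00 points with a common smallest count and 0.99 without the 23-base sequence for Hampshire minus Pietrain, -2.33 and -1.25 for Pietrain minus Large White, and with 1 library left out -4.28 to 0.77 for Hampshire minus Large White and -0.88 to 4.31 for Pietrain minus Large White. Hampshire minus Pietrain passed 0.05 for the share of the 22-base sequence without Pietrain thick replicate 3 (adjusted exact permutation p = 0.0482) or Hampshire thick replicate 5 (0.0386), with a range of -30.6 to -22.0, and for length without Hampshire thick replicate 5, range 0.195 to 0.304. The causes of these shifts were not tested. No paired analysis was possible because the labels give no numbers that pair libraries of different groups. Depth limits the rarer sequences, since counts under 6 are not listed.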
